A study of Homo sapiens with 6 samples.

Results

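The RNA levels of 9 genes of adrenergic, muscarinic and cyclic nucleotide signalling were read in cardiomyocytes treated with alcohol: the receptors ADRB1, ADRA1A, ADRA1B and CHRM2, the adenylyl cyclases ADCY1, ADCY5 and ADCY6, and the phosphodiesterases PDE3A and PDE5A. The genes were chosen as a named list and matched by gene symbol, and 9 of 9 were found among the 21134 genes listed in the series. The cells are called hiPSC-CMs, which are cardiomyocytes differentiated in culture from human pluripotent stem cells, and the labels give the line as H9, a single established line of human embryonic stem cells. There were 2 control libraries with no treatment, 2 alcohol libraries from cells in 100 mM alcohol for 24 h, and 2 co-treated libraries from cells in 100 mM alcohol with 1 μM losartan for 24 h. Losartan blocks the angiotensin II type 1 receptor, and no library had losartan without alcohol. No label says whether replicates were separate cultures, so the p-values measure the spread between these libraries, which may be technical.

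In the heart, noradrenaline and adrenaline act on beta receptors, which switch on adenylyl cyclases through the G protein Gs, and the cyclic AMP made there drives protein kinase A to raise the rate and force of the beat. Alpha1 receptors act through Gq and phospholipase C, whereas acetylcholine from the vagus nerve acts on the M2 receptor, which restrains the cyclases through Gi and opens potassium channels. Phosphodiesterases end the signal by breaking down cyclic AMP and cyclic GMP.

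The cyclases held most of the RNA of these 9 genes and the beta1 receptor held almost none. ADCY6 averaged 54.0 FPKM over the 6 libraries (a level per transcript length and per library size) and ADCY5 averaged 37.3 FPKM, while ADRB1 had 5 counts in the 6 libraries together. PDE5A, which breaks down cyclic GMP, was higher in every alcohol and every co-treated library than in either control library, by 1.75-fold in alcohol on fitted counts (log2 fold change 0.81, SE 0.26). No difference of these genes between groups passed an adjusted p of 0.05. Of the wider pathway, PPP1R1A, an inhibitor of protein phosphatase 1 that is switched on by protein kinase A, rose in both alcohol-treated groups against control by edgeR and DESeq2. In each of these comparisons the edgeR call ended when any of 4 of the 6 libraries was left out (adjusted p = 0.0831 to 0.227 in alcohol and 0.123 to 0.349 in co-treated cells), and limma did not make it.

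The libraries held 4898287 to 5051448 expected counts each. At this depth a count of 0 allows up to 3 counts, for counting error only, and 3 counts equal 0.594 to 0.612 CPM, the count scaled by library size. The 8 cardiomyocyte markers (among them TNNT2, MYL7 and NKX2-5) summed to 24200 to 24400 FPKM in the control libraries, 17300 to 23400 in alcohol and 20100 to 22000 in co-treated libraries. The endothelial list summed to at most 3.04 FPKM in any library, and the neural list to at most 2.07 FPKM. The 5 smooth muscle markers, none at 0, summed to 1700 to 1940 FPKM in the control libraries, 730 to 1460 in alcohol and 1000 to 1040 in co-treated libraries. ACTA2, TAGLN and CNN1 made up nearly all of these sums, with MYH11 at 1.71 to 4.77 and SMTN at 8.13 to 13.31 FPKM. ACTA2, TAGLN and MYH11 were below control in both alcohol-treated groups, while CNN1 and SMTN overlapped control. In the edgeR test described with the comparisons, the smooth muscle marker ACTA2 fell by 1.25 on the log2 scale in co-treated cells against control (SE 0.20, adjusted p = 0.0203, 0.000257 to 0.349 over 14 alternative settings of the analysis). In bulk RNA, fewer cells of a type and less RNA per cell cannot be told apart.

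ADRB1 (NCBI Gene 153, chr10:114043866-114046904 in RefSeq on GRCh38.p14) encodes the beta1 receptor, the main beta receptor of the adult heart. It had 1 count in each control library, 3 counts and 0 counts in the alcohol libraries, and 0 counts in both co-treated libraries. Every library was at or under the limit of 3 counts, so no difference between groups was detectable at this depth, and the gene did not pass the filter for the test.

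ADRA1A (Gene 148), an alpha1 receptor, was the most abundant alpha1 gene. Its FPKM was 7.08 and 5.39 in the control libraries, 4.98 and 5.23 in alcohol, and 6.78 and 3.46 in co-treated libraries. The alcohol libraries were both below the control libraries, whereas the co-treated libraries lay far apart and held nearly the whole range of the gene. ADRA1B (Gene 147, chr5:159865086-159989205), a further alpha1 receptor, had 0.70 and 0.35 FPKM in the control libraries, 1.22 and 1.17 in alcohol, and 0.63 and 1.05 in co-treated libraries. Both alcohol values were above the control values, but they rested on 13 and 14 counts against 4 and 8 counts.

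ADRA1A and ADRA1B thus lay in opposite directions in alcohol. ADRA1A held 90.3% ± 0.173 of the summed alpha1 FPKM in the control libraries, 77.8% ± 0.264 in alcohol and 81.4% ± 6.67 in co-treated libraries (SD, n = 2 each). ADRA1B held 7.39% ± 2.15, 18.2% ± 1.11 and 15.6% ± 10.8 in the same order, and ADRA1D 3.08% ± 2.23 over all 6 libraries. With 2 libraries against 2, an exact permutation test cannot go below p = 0.333, so these shares are given with no test. The summed alpha1 FPKM was 5.96 to 7.85 in control and 6.42 to 6.71 in alcohol libraries.

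CHRM2 (Gene 1129) encodes the M2 muscarinic receptor. Its FPKM was 6.81 and 8.72 in the control libraries, 9.12 and 9.72 in alcohol, and 7.04 and 8.90 in co-treated libraries. The alcohol libraries were the highest, and each co-treated library lay close to one of the control libraries. When counts were scaled by the library's TMM size instead, the alcohol and control ranges overlapped. The transcript length of CHRM2 in the deposited tables was 2668 and 2682 bases in the control libraries and 2472 and 2601 bases in alcohol. The alcohol FPKM is thus raised against its counts. CHRM2 held 69.9% ± 4.19 (SD, n = 6) of the muscarinic FPKM and CHRM3, the Gq-coupled M3 receptor, 27.4% ± 3.74. RefSeq places CHRM2 at chr7:136868652-137020213 (GRCh38.p14), where LOC349160, also listed in the series, overlaps it, and counts of overlapping genes are less certain.

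**Figure D1:**
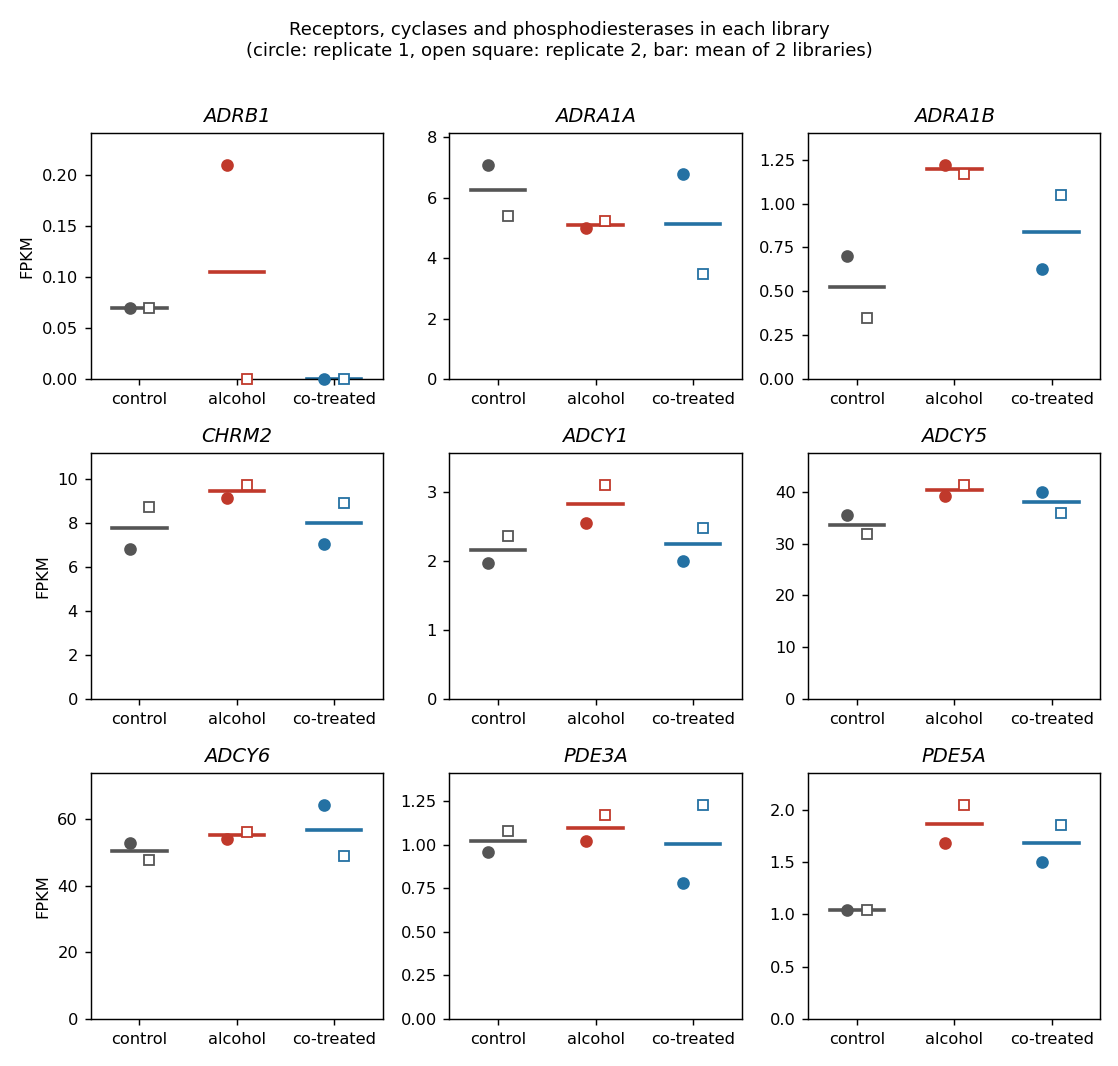
FPKM (y axis, from 0, with its own scale in each panel) of the 9 genes in the 6 libraries by group (x axis). Circles are replicate 1, open squares replicate 2 and bars the mean of 2 libraries. PDE5A is at 1.04 FPKM in both control libraries and at 1.5 FPKM or more in the other 4, while ADRB1 stays at or under 0.21 FPKM.

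ADCY6 (Gene 112, chr12:48766194-48789974) and ADCY5 (Gene 111, chr3:123282296-123449090) are the calcium-inhibited cyclases that predominate in heart muscle. ADCY6 had 52.92 and 47.78 FPKM in the control libraries, 54.11 and 56.02 in alcohol, and 64.29 and 48.93 in co-treated libraries. The highest value and a value within the control range were thus both in co-treated libraries. ADCY5 had 35.51 and 31.82 FPKM in the control libraries, 39.19 and 41.36 in alcohol, and 40.03 and 36.0 in co-treated libraries. All 4 alcohol-treated libraries were above both control libraries in ADCY5, though by CPM after TMM scaling the co-treated and control ranges overlapped.

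ADCY1 (Gene 107, chr7:45574140-45723116), a cyclase stimulated by calcium and calmodulin that is best known from brain, was a minor cyclase here. Its FPKM was 1.97 and 2.37 in the control libraries, 2.56 and 3.11 in alcohol, and 2.01 and 2.49 in co-treated libraries. Its expected counts were 126.0 and 113.5 in the control libraries, 163.8 and 193.2 in alcohol, and 124.8 and 158.2 in co-treated libraries. Both alcohol libraries exceeded all other libraries on either scale. The transcript length in the deposited tables was 12499 bases in 5 libraries and 9400 bases in control replicate 2, so the FPKM of that library is raised against its count.

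ADCY6 held 50.8% ± 1.61 (SD, n = 6) of the summed FPKM of 10 adenylyl cyclases, ADCY5 35.2% ± 1.40, ADCY9 4.50% ± 0.601, ADCY7 4.27% ± 0.493 and ADCY1 2.29% ± 0.404. The ADCY6 share ran from 49.0% to 53.5% and the ADCY5 share from 33.3% to 36.6%.

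PDE5A (Gene 8654, chr4:119494403-119628804) degrades cyclic GMP and is the target of sildenafil. It had 1.04 FPKM in both control libraries, 1.68 and 2.05 in alcohol, and 1.5 and 1.86 in co-treated libraries, or 37 and 36, 60 and 70, and 52 and 65 counts. The control libraries did not overlap with either alcohol-treated group. PDE3A (Gene 5139, chr12:20368537-20688583), which degrades cyclic AMP and is inhibited by cyclic GMP and by milrinone, had 0.96 and 1.08 FPKM in the control libraries, 1.02 and 1.17 in alcohol, and 0.78 and 1.23 in co-treated libraries, and its groups overlapped.

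The promoters of ADCY1 and PDE5A, whose alcohol libraries lay above control by the smallest p-values of the 9 genes, are shown because cyclic AMP acts on transcription through CREB, which binds the cyclic AMP response element. The motifs searched were its core TGACG on either strand and the full palindrome TGACGTCA, which contains the core on both strands. The sequences are the 250 bases before the gene's start in RefSeq (GRCh38.p14), 5′ to 3′ on the gene's strand, at chr7:45573890-45574139 on the plus strand for ADCY1 and chr4:119628805-119629054 on the minus strand for PDE5A, with the core motif in capitals.
ADCY1: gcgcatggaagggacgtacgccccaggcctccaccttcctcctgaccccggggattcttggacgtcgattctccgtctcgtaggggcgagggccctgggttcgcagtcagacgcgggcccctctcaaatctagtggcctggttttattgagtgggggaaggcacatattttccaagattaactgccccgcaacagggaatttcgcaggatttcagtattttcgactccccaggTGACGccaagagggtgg
PDE5A: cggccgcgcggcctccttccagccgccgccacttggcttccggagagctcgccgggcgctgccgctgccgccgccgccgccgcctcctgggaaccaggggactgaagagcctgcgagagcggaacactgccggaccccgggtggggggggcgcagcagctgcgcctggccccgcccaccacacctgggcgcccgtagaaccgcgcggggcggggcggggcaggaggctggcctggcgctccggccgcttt
The ADCY1 window held 1 core motif, which began 17 bases before the start, and the PDE5A window held none. The G and C content was 58.4% for ADCY1 and 78.8% for PDE5A, against a median of 58.0% over 35116 promoter windows. The table holds 13 windows for 7 of the 9 genes, and it has no entry for ADRA1A and ADCY6. A core motif was found in 5 of these 13 windows, in ADRB1, CHRM2 and ADCY1, against 21.2% of all windows. The CHRM2 windows with a match overlap and share the same site, as do the ADCY1 windows. The matches are thus 1 site in each of 3 genes, and the windows are not independent. The full element was found in 0 of the 13, against 1.65% of all windows. A match describes the letters only.

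Neither PDE5A nor PDE3A was a main phosphodiesterase by RNA. PDE4D, which degrades cyclic AMP near the beta receptor and the ryanodine receptor, held 21.4% ± 1.12 (SD, n = 6) of the summed FPKM of 18 phosphodiesterases, followed by PDE7A at 11.2%, PDE8A at 10.1% and PDE10A at 9.81%. PDE5A held 2.02% ± 0.0282 in the control libraries, 3.14% ± 0.0765 in alcohol and 2.74% ± 0.349 in co-treated libraries (SD, n = 2 each). PDE3A held 1.82% ± 0.278 over all 6 libraries.

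**Figure D2:**
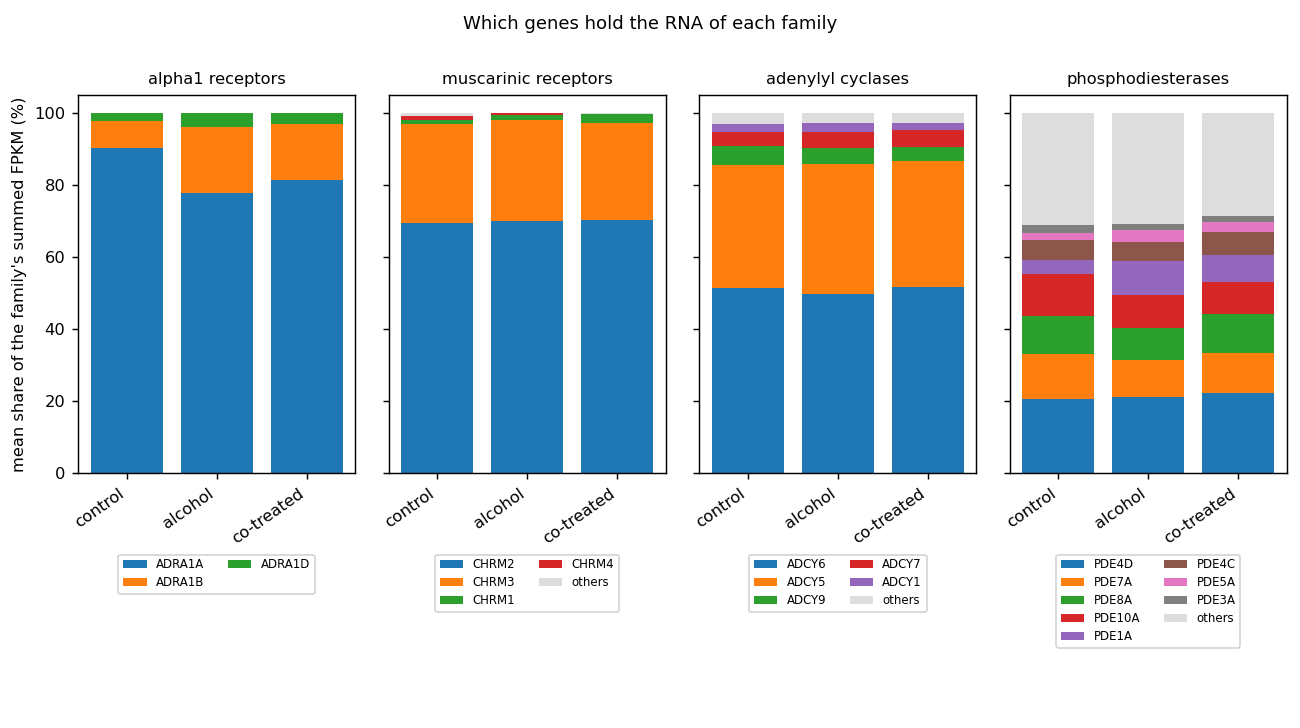
Mean share of each gene in the summed FPKM of its family (y axis, in percent) in control, alcohol and co-treated libraries (x axis, 2 libraries each), for 4 families. ADRA1A, CHRM2 and ADCY6 hold the largest blocks of their families, and PDE5A and PDE3A are thin blocks among the phosphodiesterases.

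Ordered by mean FPKM, the 9 genes ran ADCY6, ADCY5, CHRM2 (8.38), ADRA1A (5.49), ADCY1 (2.42), PDE5A (1.53), PDE3A (1.04), ADRA1B (0.853) and ADRB1 (0.0583). ADCY6 stood at the 92.2 percentile of the 14926 genes tested, CHRM2 at the 50.6 percentile and PDE3A at the 7.62 percentile. ADCY6, ADCY5 and CHRM2 were separate, with no overlap of their ranges over libraries. The ranges of CHRM2 and ADRA1A overlapped, with CHRM2 above in 5 of 6 libraries. The ranges also overlapped between ADCY1 and PDE5A, between PDE5A and PDE3A, and between PDE3A and ADRA1B. PDE3A exceeded ADRA1B in 4 of 6 libraries.

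The effect of alcohol was tested as alcohol against control with edgeR's quasi-likelihood test on the counts of all 14926 genes that passed a filter on low counts, with Benjamini-Hochberg adjustment over all of them. Of the 9 genes, 8 were tested and 0 passed an adjusted p of 0.05, against 0.067% of all genes tested. DESeq2 and limma on log2 FPKM also called 0. At an unadjusted p under 0.05 there were 2, PDE5A and ADCY1, both higher, against 11.0% of all genes. PDE5A differed by 0.81 on the log2 scale (SE 0.26, unadjusted p = 0.0076, adjusted p = 0.253, range 0.2 to 0.902 over 14 alternatives), and by 0.71 to 0.91 with any 1 library left out. ADCY1 differed by 0.56 (SE 0.18, unadjusted p = 0.00752, adjusted p = 0.253), and by 0.46 to 0.66 with any 1 library left out.

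The other 6 genes had smaller or less certain differences. ADRA1B had the highest log2 fold change, 1.13, but an SE of 0.60 and an adjusted p of 0.524 by edgeR. ADRA1A was at -0.33 (SE 0.30), ADCY5 at 0.20 (SE 0.12), CHRM2 at 0.16 (SE 0.20), ADCY6 at 0.09 (SE 0.14) and PDE3A at -0.02 (SE 0.32). The FPKM of 7 of the 8 genes did not overlap between the groups, 6 higher and ADRA1A lower in alcohol, while 42.4% of all genes tested did not overlap, 24.7% higher and 17.7% lower. By CPM after TMM scaling 5 of the 8 did not overlap, against 43.8% of all genes tested. The median log2 fold change was 0.18 over these 8 genes and -0.0033 over all genes tested.

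Losartan was tested by setting co-treated against alcohol libraries, and none of the 8 genes passed. By edgeR, DESeq2 and limma 0 were called, against 0.0134% of all genes by edgeR, and 0 had an unadjusted p under 0.05, against 5.55%. ADCY1 had the smallest p, with a log2 fold change of -0.34 (SE 0.17, unadjusted p = 0.0738, adjusted p = 0.900, range 0.795 to 1.0 over 14 alternatives). ADRA1B was at -0.51 (SE 0.56), CHRM2 at -0.18 (SE 0.20), PDE5A at -0.15 (SE 0.24) and PDE3A at -0.14 (SE 0.32). ADCY5 was at -0.07 (SE 0.12), ADCY6 at 0.03 (SE 0.14) and ADRA1A at -0.0022 (SE 0.30). The FPKM of 3 of the 8, ADRA1B, CHRM2 and ADCY1, was lower in both co-treated libraries than in both alcohol libraries, and 32.3% of all genes did not overlap in this comparison, 14.3% lower. By CPM 2 of the 8, ADRA1B and ADCY1, did not overlap, against 33.6% of all genes.

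Co-treated cells were also set against control. By edgeR 0 of the 8 genes passed, against 0.362% of all genes, and DESeq2 and limma called 0. The 1 gene with an unadjusted p under 0.05, against 12.6% of all genes, was PDE5A, with a log2 fold change of 0.66 (SE 0.26, unadjusted p = 0.0253, adjusted p = 0.311, range 0.271 to 0.727 over 14 alternatives). ADCY1 was at 0.22 (SE 0.18) and ADRA1B at 0.63 (SE 0.63). By FPKM 2 of the 8 genes, PDE5A and ADCY5, did not overlap between the groups, both higher, against 43.4% of all genes and 27.1% higher. By CPM PDE5A alone did not overlap, against 43.3% of all genes.

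The 4 libraries with alcohol were then set against control as the mean of the 2 alcohol-treated groups, in a comparison that shares all its libraries with the others. By edgeR, DESeq2 and limma 0 of the 8 genes passed, against 0.556% of all genes by edgeR. At an unadjusted p under 0.05 there were 2, against 13.5% of all genes. PDE5A differed by 0.73 (SE 0.23, unadjusted p = 0.00685, adjusted p = 0.165, range 0.132 to 0.564 over 13 alternatives). ADCY1 differed by 0.39 (SE 0.16, unadjusted p = 0.0272, adjusted p = 0.295). The control libraries lay outside the range of the 4 others in FPKM for PDE5A and ADCY5, 2 of 8 genes and both higher, against 23.2% of all genes and 14.8% higher. By CPM it was PDE5A alone.

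**Figure D3:**
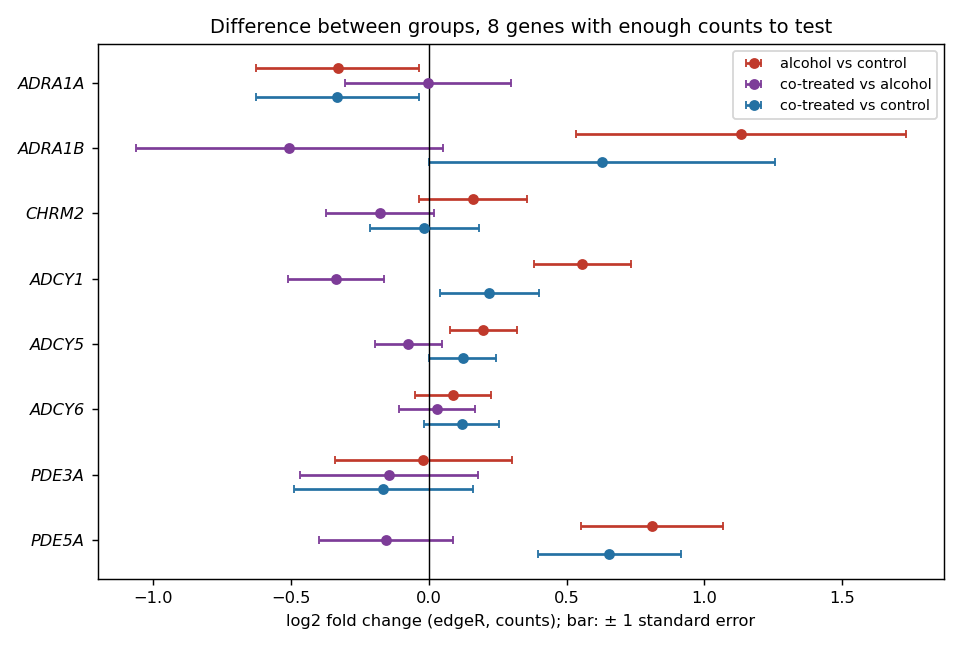
Log2 fold change (x axis, from edgeR on counts) of the 8 genes tested (y axis) in 3 comparisons, with bars of 1 standard error. PDE5A and ADCY1 lie right of 0 in alcohol against control, at 0.81 and 0.56, and the wide bars of ADRA1B come with 4 to 14 counts per library.

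The marker sums of cardiomyocytes, smooth muscle and endoderm lay outside the control range in all 4 alcohol-treated libraries, as PDE5A did. ADCY1 was above control in alcohol and overlapped it in co-treated libraries, and so did the fibroblast, pluripotent and neural sums. Fibroblast markers summed to 281 to 300 FPKM without treatment, 313 to 330 with alcohol alone and 297 to 366 with losartan added. The cardiomyocyte sums, given above, were lower than control, but the single markers did not move together. Only MYL7 and TNNT2 were below control in every alcohol-treated library. MYL7, the most abundant, averaged 15350 FPKM without treatment, 10970 with alcohol alone and 11040 with losartan added. MYH6, MYH7 and TTN overlapped control in both groups, and MYL2 was above control in co-treated libraries. ACTN2 and NKX2-5 were below control in co-treated libraries only, and NKX2-5 was above it in alcohol. Smooth muscle, a tissue known for PDE5A, had the marker sums given above, lower in all 4 alcohol-treated libraries while PDE5A was higher. The 5 endoderm markers summed to 36.7 to 38.3 FPKM in the control libraries, 49.2 to 49.4 in alcohol and 46.6 to 48.0 in co-treated libraries, with FOXA2 at 0 in both control libraries and at most at 0.25 FPKM in any library. Of the 5, TTR and FOXA2 did not pass the filter for the test. TTR averaged 0.76 FPKM in control and 2.2 FPKM in alcohol libraries, with no overlap. Of the 3 tested, 0 were called in alcohol against control by edgeR, DESeq2 or limma, and APOA1 had an unadjusted p under 0.05 by edgeR. The part of these lists in the values of PDE5A and ADCY1 was not tested.

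The phosphodiesterase family was read as a whole beside PDE5A and PDE3A. Of 18 genes, 16 were tested and 0 were called by edgeR, DESeq2 or limma in any of the 4 comparisons. In co-treated against alcohol 0 had an unadjusted p under 0.05. At an unadjusted p under 0.05, 5 of the 16 were higher and 0 lower in alcohol against control, against 5.27% of all genes higher and 5.78% lower. They were PDE1A, PDE1B, PDE1C, PDE4B and PDE5A. PDE1A, PDE1B and PDE1C encode the 3 calcium and calmodulin-stimulated phosphodiesterases, which degrade both cyclic nucleotides. In co-treated cells against control there were again 5 higher and 0 lower, namely PDE1A, PDE1C, PDE4B, PDE4D and PDE5A, against 6.26% of all genes higher and 6.37% lower.

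PDE1A had the smallest p of the family in alcohol. Its FPKM was 2.13 and 2.02 in the control libraries, 4.03 and 7.46 in alcohol, and 4.39 and 4.99 in co-treated libraries, with 38 and 36, 58 and 97, and 64 and 71 counts. The control libraries were the lowest and alcohol replicate 2 was far above the rest. The log2 fold change in counts was 1.04 (SE 0.28, adjusted p = 0.179, range 0.0303 to 0.904 over 14 alternatives by edgeR, DESeq2 and limma). Without alcohol replicate 2 it was 0.65, with an adjusted p of 0.904, and without alcohol replicate 1 it was 1.36, with an adjusted p of 0.0303. The deposited transcript length of PDE1A was 3519 and 3525 bases in the control libraries, 2837 and 2647 bases in alcohol, and 2967 and 2820 bases in co-treated libraries, so its FPKM moved more than its counts. PDE1A overlaps DNAJC10 in the annotation.

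PDE1C was at 0.89 in alcohol against control (SE 0.35) and 0.87 in co-treated cells against control (SE 0.35), on 18 to 39 counts per library. PDE4B, a cyclic AMP phosphodiesterase, was at 0.62 (SE 0.28) and 0.90 (SE 0.28), and PDE1B at 0.69 (SE 0.32) and 0.49 (SE 0.32). PDE4D, the most abundant of the family, had 10.17 and 11.17 FPKM in the control libraries, 11.54 and 13.42 in alcohol, and 13.83 and 13.52 in co-treated libraries. The summed FPKM of the family was 51.0 to 52.1 in the control libraries, 52.5 to 66.3 in alcohol and 60.3 to 62.4 in co-treated libraries, and none of the groups with alcohol overlapped with control. The lower alcohol library was close to the control range, and the sums include PDE1A, whose FPKM moved more than its counts. The median log2 fold change of the 16 genes in alcohol against control was 0.08, beside -0.0033 over all genes, and 7 of the 16 had a log2 fold change below 0.

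**Figure D4:**
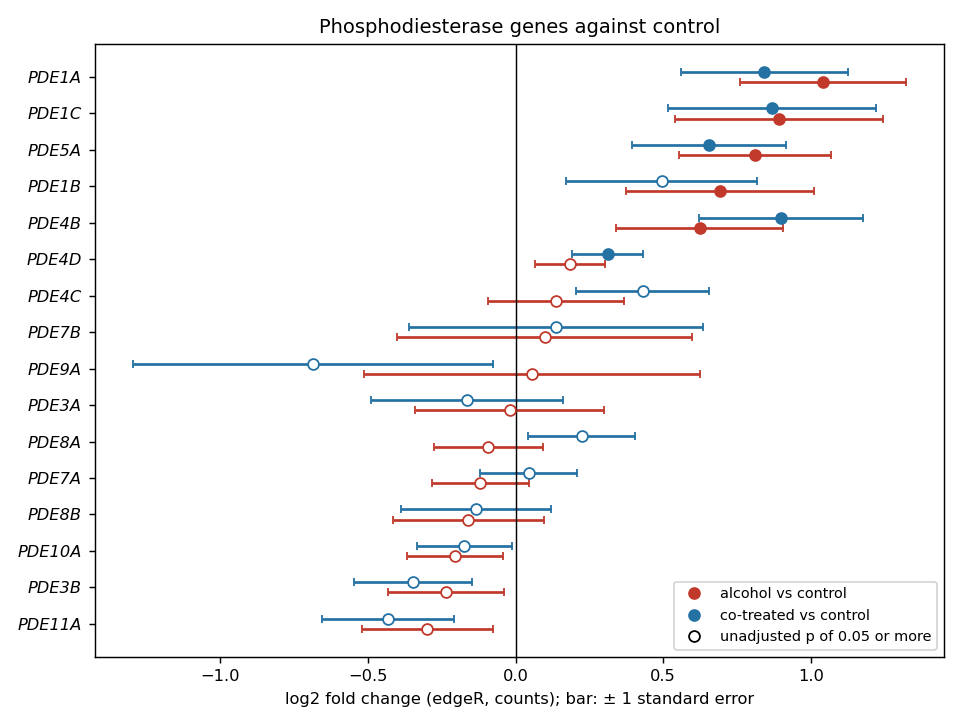
Log2 fold change (x axis, edgeR on counts, bars of 1 standard error) of the 16 phosphodiesterase genes tested (y axis) in alcohol and in co-treated cells against the same control libraries. Filled points have an unadjusted p under 0.05, which PDE1A, PDE1C, PDE4B and PDE5A reach in both comparisons, and all filled points lie right of 0.

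The rest of the pathway was taken from a list of 131 genes in 12 classes that includes the 9 genes, of which 129 were listed in the series and 114 tested. By edgeR 1 of the 114 rose in alcohol against control, 0 passed in co-treated against alcohol, 2 rose in co-treated against control, 1 rose with the 4 alcohol-treated libraries pooled, and 0 fell in any. Of all genes tested, 0.067%, 0.0134%, 0.362% and 0.556% were called in these comparisons. DESeq2 called 1, 0, 2 and 1 of the list and limma called 0. In co-treated against control the DESeq2 calls were PPP1R1A, higher, and RGS5, lower, while DESeq2 gave GNG2 no adjusted p. At an unadjusted p under 0.05 there were 12 higher and 3 lower, 1 higher and 5 lower, 13 higher and 8 lower, and 15 higher and 7 lower in these comparisons. These were 13.2%, 5.26%, 18.4% and 19.3% of the 114, beside 11.0%, 5.55%, 12.6% and 13.5% of all genes tested.

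PPP1R1A (Gene 5502, chr12:54579246-54588659) accounted for the call in alcohol. Its FPKM was 48.16 and 51.00 in the control libraries, 82.77 and 115.07 in alcohol, and 84.71 and 91.71 in co-treated libraries. Every alcohol-treated library was above both controls, and the 2 alcohol-treated groups overlapped. The log2 fold change was 0.95 in alcohol against control (SE 0.14, adjusted p = 0.0309, range 4.32e-05 to 0.227 over 14 alternatives by edgeR, DESeq2 and limma). It was 0.79 in co-treated cells against control (SE 0.14, adjusted p = 0.0346, range 0.00116 to 0.349) and -0.17 in co-treated against alcohol (SE 0.14, adjusted p = 0.937). In alcohol against control the call was lost without control replicate 2, without alcohol replicate 2 or without either co-treated library, with adjusted p of 0.0831 to 0.227. In co-treated against control it was lost without any 1 of the 4 libraries compared, with adjusted p of 0.123 to 0.349. The part of the cardiomyocyte, smooth muscle and endoderm marker lists in this difference was not tested.

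GNG2 (Gene 54331, chr14:51826174-51969795), a G protein gamma subunit, was the other gene called. It had 0.45 and 0.61 FPKM in the control libraries, 1.36 and 1.10 in alcohol, and 2.03 and 3.14 in co-treated libraries, on 9 and 12, 27 and 21, and 39 and 62 counts. The 3 groups did not overlap, and co-treated libraries were the highest. GNG2 rose by 2.23 on the log2 scale in co-treated cells against control (SE 0.40, adjusted p = 0.0334, range 0.0161 to 0.351 over 12 alternatives). It was at 1.16 in alcohol against control (SE 0.43, adjusted p = 0.330) and at 1.06 in co-treated against alcohol (SE 0.35, adjusted p = 0.836), both by edgeR. The call was lost without any 1 of the 4 control and co-treated libraries, with adjusted p of 0.104 to 0.351.

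Other genes of the list came next by p without passing. KCNQ1, the channel of the slow repolarising potassium current, which protein kinase A enhances, had 6.78 and 6.53 FPKM in the control libraries, 9.68 and 10.81 in alcohol, and 10.66 and 11.05 in co-treated libraries. All 4 alcohol-treated libraries were above control, with a log2 fold change of 0.59 in alcohol (SE 0.16, adjusted p = 0.179) and 0.68 in co-treated cells (SE 0.16, adjusted p = 0.0924) by edgeR. KCNQ1 overlaps KCNQ1OT1 and KCNQ1-AS1, both listed in the series, so its counts are less certain. ADRA2B, an alpha2 receptor, had 2.16 and 2.23 FPKM in the control libraries, 3.68 and 3.79 in alcohol, and 4.64 and 4.29 in co-treated libraries. Its 3 groups did not overlap, with a log2 fold change of 0.73 (SE 0.24, adjusted p = 0.273) in alcohol and 0.97 (SE 0.24, adjusted p = 0.0964) in co-treated cells against control by edgeR.

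On the lower side, RGS5, which shortens G protein signals and is abundant in mural cells of vessels, had 76.81 and 90.01 FPKM in the control libraries, 63.83 and 70.88 in alcohol, and 48.29 and 66.36 in co-treated libraries. All 4 alcohol-treated libraries were below control, and the log2 fold change in co-treated cells was -0.58 (SE 0.15, adjusted p = 0.123 by edgeR, 0.031 by DESeq2, range 0.031 to 0.487 over 14 alternatives). The smooth muscle and cardiomyocyte marker sums were lower in the same libraries, and their part in the RGS5 values was not tested. GNB1, a G protein beta subunit, had 82.49 and 83.66 FPKM in the control libraries and 66.88 and 61.66 in alcohol, a log2 fold change of -0.41 (SE 0.12, adjusted p = 0.201 by edgeR). In co-treated against alcohol the smallest p-values beside GNG2 belonged to PKIG, an inhibitor of protein kinase A, at -0.41 (SE 0.14), to the pacemaker channel HCN4 at -0.35 (SE 0.13), to GNAO1 at -0.66 (SE 0.27) and to CREM, a cyclic AMP-responsive transcription factor gene, at -0.29 (SE 0.12). None of these 4 passed, with adjusted p of 0.836 to 0.881 by edgeR.

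**Figure D5:**
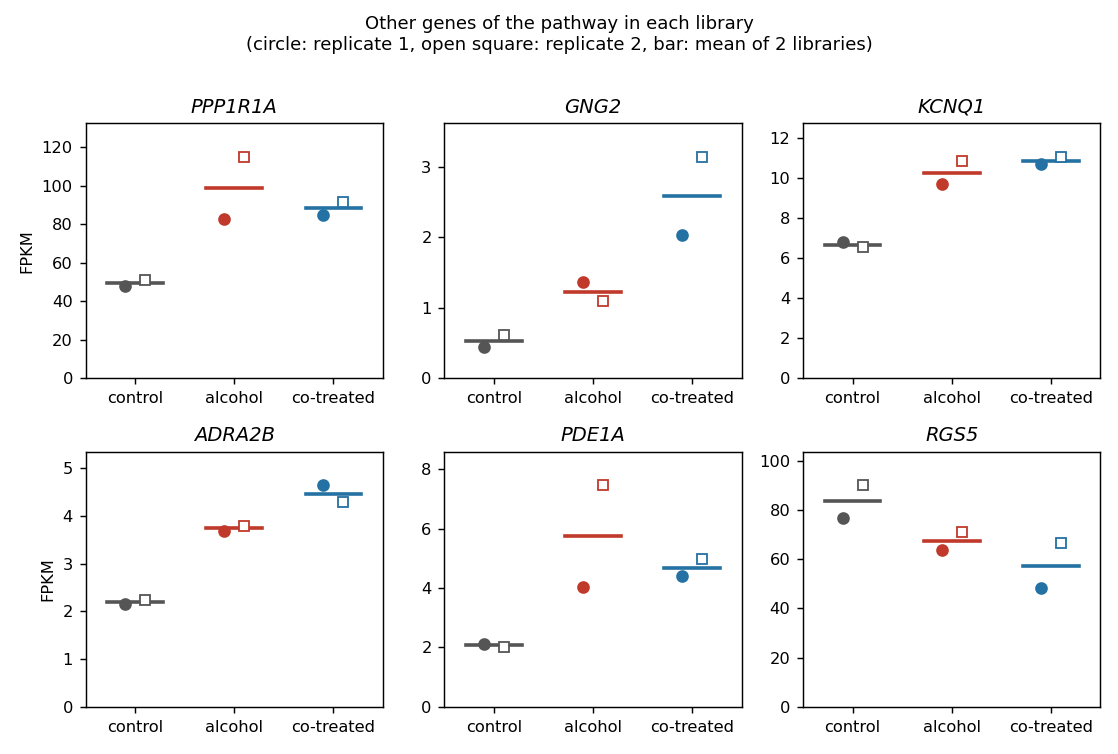
FPKM (y axis, from 0) of 6 genes of the wider pathway in the 6 libraries by group (x axis), drawn as circles for replicate 1, open squares for replicate 2 and bars for the mean of 2 libraries. PPP1R1A, GNG2, KCNQ1, ADRA2B and PDE1A are higher and RGS5 lower in all 4 alcohol-treated libraries than in both controls.

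By class, neither edgeR nor DESeq2 nor limma called any of the receptors, G protein subunits, desensitisation and RGS genes, adenylyl cyclases, guanylyl cyclases, phosphodiesterases, kinases, anchors, phospholipase C genes or CREB target genes in alcohol against control, where 1 of the 12 effector genes, PPP1R1A, was called by edgeR and DESeq2 and not by limma. Of the 15 G protein subunits, 11 had a log2 fold change below 0 in alcohol and 13 in co-treated cells against control, with medians of -0.10 and -0.23 beside -0.0033 and -0.0017 over all genes. These counts share the control libraries, and edgeR called 0 of the 15 subunits lower in either. GNAS, the alpha subunit of Gs, was the most abundant of them, at 705.74 and 731.58 FPKM in the control libraries, 689.17 and 681.19 in alcohol, and 646.61 and 661.98 in co-treated libraries. Of the 15 genes of protein kinase A, protein kinase G and EPAC, 0 had an unadjusted p under 0.05 in alcohol against control, beside 11.0% of all genes, and 1, lower, did in co-treated against alcohol. PRKAR1A, a regulatory subunit of protein kinase A, ran from 180.72 to 229.17 FPKM and POPDC2, a cyclic AMP-binding membrane protein, from 223.95 to 310.61 FPKM. Of the 7 CREB target genes tested, 0 had an unadjusted p under 0.05 in alcohol against control, where 11.0% of all genes did, and 1, lower, did in co-treated cells against alcohol and against control. With so few genes these counts do not set either class apart. PPARGC1A, a regulator of mitochondrial genes, had 13.68 and 11.98 FPKM in the control libraries and 15.82 and 15.41 in alcohol. PLN, which encodes the calcium pump inhibitor phospholamban and is a main target of protein kinase A, had 1528.65 and 1321.94 FPKM in the control libraries, 1809.84 and 1697.72 in alcohol, and 1604.65 and 1889.06 in co-treated libraries, a log2 fold change of 0.26 in alcohol (SE 0.15, adjusted p = 0.554 by edgeR).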

How the data were processed

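Total RNA of 6 libraries was sequenced by the authors, 2 for each group, and libraries were grouped by the treatment in their labels. The submitters' processing notes name HISAT2 2.0.4, Bowtie2 2.2.5, RSEM 1.2.12 and the build hg38. The authors deposited expected counts per gene, of which 33.9% of those above 0 are not whole (further than 0.005 from a whole number), the FPKM made from them and a transcript length. Library totals were 4898287 to 5051448. Genes left out of a library's table were set to 0.

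Expected counts were rounded and fitted in edgeR 4.0.16 (R 4.3.3; TMM, filterByExpr, 3 group means, quasi-likelihood F test, two-sided, Benjamini-Hochberg at 0.05 over 14926 genes). Standard errors are |log2 fold change| over the root of the F value. The fit was tested on simulated data, which held no changes as small as those of PDE5A and ADCY1. Alternatives were DESeq2 1.42.0, its size factors in edgeR, other filters, the replicate number as a block, limma 3.58.1 on log2(FPKM + 1) and log2(FPKM + 0.1), each library left out, and the compared groups alone. Family shares are shares of summed FPKM.

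The 9 genes, the lists and the tests were chosen with earlier results of these data known. Text names all 9 genes, list genes called in a comparison or among its 5 smallest p, the 2 most abundant of a class, and relatives where family shares are given. Of the list, 4 genes were matched under older symbols. CHAT, ADRA2A and SIK1 were not matched. Some list genes are not reported here. Promoters are RefSeq windows. Protein sequences were not analysed here. The study's methods and the labels give losartan together with alcohol, while its results speak both of co-treatment and of pretreatment.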

Additional observations from a re-analysis of the deposited data

How the results depend on the processing

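No call of the 8 genes depended on the processing: 0 passed in any of the 4 comparisons under any alternative, and 409 of 430 alternative fold changes kept their sign. The other 21 turned. ADRA1A in co-treated against alcohol was 0.00033 with at least 10 counts in every library, and -0.55 to 0.40 with a library left out. With limma on log2(FPKM + 1) and log2(FPKM + 0.1), CHRM2 in co-treated against control was 0.034 and 0.038, PDE3A in alcohol against control 0.052 and 0.093, and PDE3A in all alcohol-treated libraries against control 0.017 and 0.022. With a library left out, co-treated against control ran from -0.88 to 0.066 for ADRA1A, -0.19 to 0.16 for CHRM2, -0.073 to 0.29 for ADCY6 and -0.60 to 0.17 for PDE3A. Co-treated against alcohol ran from -0.17 to 0.015 for ADCY5, -0.16 to 0.20 for ADCY6 and -0.58 to 0.19 for PDE3A, alcohol against control from -0.087 to 0.081 for PDE3A, and all alcohol-treated libraries against control from -0.077 to 0.26 for CHRM2 and -0.31 to 0.077 for PDE3A. By CPM, 1 gene in place of 2 did not overlap in co-treated against control, and 1 in place of 2 with all alcohol-treated libraries.

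Counts of called genes moved more. In the order alcohol against control, co-treated against alcohol, co-treated against control and all alcohol-treated libraries against control, edgeR called 10, 2, 54 and 83 of all genes. DESeq2 called 72, 5, 128 and 158, no filter 2, 1, 15 and 27, and limma 0, 1, 2 and 0 with a pseudocount of 1. With a pseudocount of 0.1 limma called 2, 3 and 5 in the comparisons against control. At least 10 counts in every library gave 26, 0 and, for all alcohol-treated libraries, 144, and the compared groups alone 3, 4 and 158 in the other comparisons. Leaving out a library gave 1 to 220, 1 to 24, 2 to 184 and 6 to 407, with the most without alcohol replicate 1. Among pathway genes the calls were 1, 0, 2 and 1 by edgeR and as many by DESeq2. They were 0 by limma in the comparisons against control, and with no filter 0 in alcohol and 0 in co-treated against control. With at least 10 counts 1 was called in co-treated against control, and with the compared groups alone 0 in alcohol against control. With a library left out they were 0 to 2, 0 to 2 and 0 to 3 in the comparisons against control. The cause was not tested.

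Same-numbered libraries deviated together with r of 0.114, -0.0162 and 0.0412 across genes. These low values do not exclude pairing by replicate number, since a correlation over all genes can miss a shift shared by some of them. With the replicate block edgeR called 48, 5, 136 and 256 genes, more than without it in each comparison. It called 4 pathway genes for all alcohol-treated libraries against control, and 0 of the 8 genes. Depth limits ADRB1 and ADRA1B most, with at most 14 counts per library.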
